A study of Mus musculus with 6 samples.

Results

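The TNF receptor superfamily is a group of cell-surface receptors with cysteine-rich outer domains that bind trimeric ligands of the TNF family. The 10 members described here, chosen by gene symbol as members known from lymphocytes, were Tnfrsf1a, Tnfrsf1b, Tnfrsf4, Tnfrsf9, Tnfrsf14, Tnfrsf18, Tnfrsf25, Ltbr, Cd27 and Fas. All 10 were present among the 23268 genes of the table, and all 10 passed the filter on low values (a mean of at least 1 FPKM over the 6 libraries). They were measured by RNA sequencing of group 2 innate lymphoid cells (ILC2s), tissue-resident lymphocytes known for type 2 cytokines, sorted from colons of 6 to 8 week old C57BL/6 mice. The mice had received water (control, 3 libraries) or 3% dextran sulfate sodium (DSS, 3 libraries) for 6 days; no transgene or gene deletion is named for either group. DSS in drinking water damages the epithelial lining of the colon and is widely used to induce colitis. Whether a library stands for a single mouse or for pooled mice is not given in the labels, and p-values therefore measure only the spread between these samples, which could be technical. Levels are FPKM, which corrects fragments for the length of a gene and for sequencing depth, and can be compared between genes of a library. Between libraries the scale was not fully shared: FPKM summed to 424865 to 550141 per library, and other scalings are given where they end a call. Means are given ± SD over n = 3 libraries per group, and differences are log2(FPKM + 1) in DSS less that in control, called log2 changes, ± SE, with p-values from limma adjusted over all 12187 genes tested.

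Receptors of this family signal through adaptors that their cytoplasmic tails recruit. Most members bind TRAF proteins directly, which leads to NF-kB and MAP kinase activity, while a subset carries a death domain and can also recruit caspase-activating complexes. On lymphocytes, TNFR2, OX40, 4-1BB, GITR and CD27 are known as co-stimulatory receptors. DR3, GITR and TNFR2 are known as receptors through which ILC2s respond to their ligands.

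Of the 10 members, 1 passed the test at an adjusted p of 0.05: Tnfrsf1b, the gene of TNFR2, was 2.91-fold lower in DSS by the ratio of means. Tnfrsf9, the gene of 4-1BB, was lower in each DSS library than in any control, at a ratio of 1.81, but did not pass. In the other 8 members the groups overlapped. Of the 10, 4 had a log2 change above 0 and 6 below, beside 53.1% and 46.9% of all genes tested. The median over the 10 members was −0.16, beside 0.031 over all genes tested. Among all genes tested, 0.148% were called lower and 0.0738% higher in DSS by the same rule, 18 and 9 genes. After scaling to an equal total these numbers were 8 and 6, after median-of-ratios scaling 7 and 6, and after quantile normalization 11 and 8. Every DSS library lay below every control library in 9.60% of all genes tested and above it in 6.35%, beside which 2 of the 10 members did so downward and 0 upward.

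**Figure D1:**
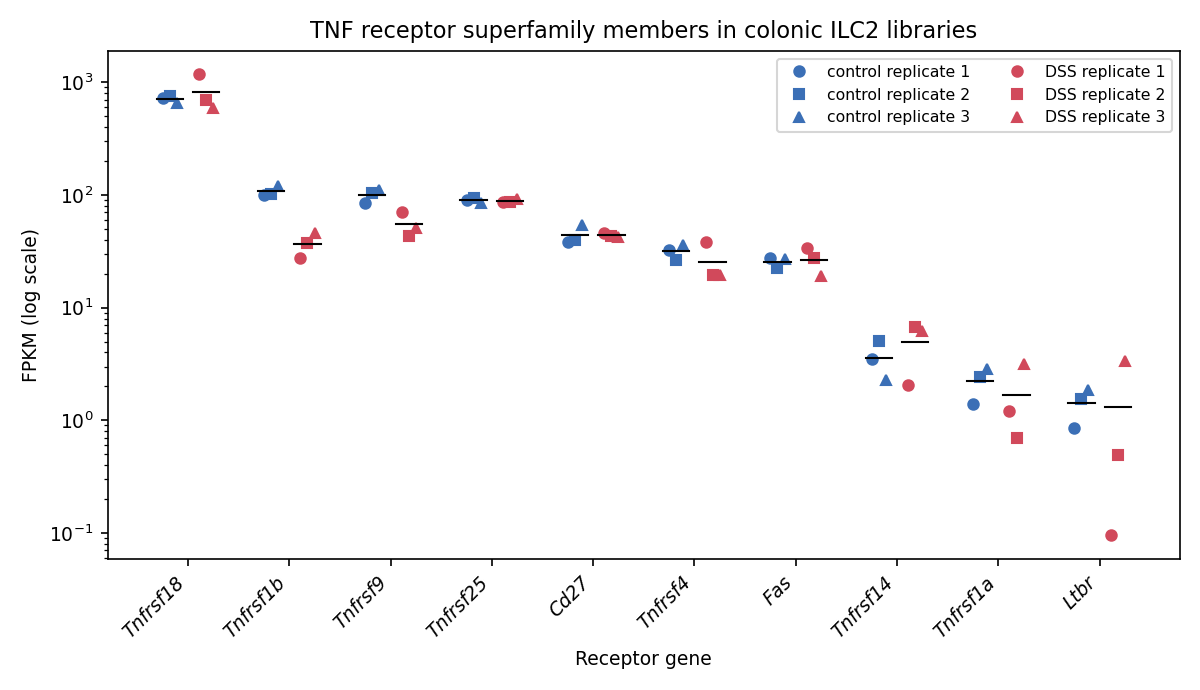
FPKM (log scale) of the 10 receptor genes in each of the 3 control and 3 DSS libraries, ordered by control mean; black bars are group means and marker shapes are replicate numbers. Tnfrsf1b runs from 100.2 to 120.1 in control and from 27.8 to 46.2 in DSS, Tnfrsf25 sits at 84.2 to 94.0 in all 6 libraries, and the low genes Tnfrsf1a and Ltbr spread widely.

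The upstream sequences of the members that stood apart most, Tnfrsf1b and Tnfrsf9, are shown beside that of Tnfrsf25, whose level hardly varied, as the 250 bases before a RefSeq start site (build GRCm38.p6, the same assembly as mm10). All 10 members had an entry in the RefSeq promoter table. Each sequence is written 5′ to 3′ on the gene's own strand, and capitals mark matches to a kappaB core (GGG, any 2 bases, TTTCC), an AP-1 motif (TGANTCA) or an IRF motif (GAAA, any 2 bases, GAAA) on either strand. A match on the minus strand reads as its reverse complement.
Tnfrsf1b, chr4:145246871-145247120, minus strand: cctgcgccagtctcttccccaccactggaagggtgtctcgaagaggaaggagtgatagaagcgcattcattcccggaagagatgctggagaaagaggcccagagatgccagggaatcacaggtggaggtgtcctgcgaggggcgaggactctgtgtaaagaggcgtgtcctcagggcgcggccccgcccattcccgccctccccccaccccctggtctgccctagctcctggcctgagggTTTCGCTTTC
Tnfrsf9, chr4:150927749-150927998, plus strand, the more downstream of its RefSeq starts: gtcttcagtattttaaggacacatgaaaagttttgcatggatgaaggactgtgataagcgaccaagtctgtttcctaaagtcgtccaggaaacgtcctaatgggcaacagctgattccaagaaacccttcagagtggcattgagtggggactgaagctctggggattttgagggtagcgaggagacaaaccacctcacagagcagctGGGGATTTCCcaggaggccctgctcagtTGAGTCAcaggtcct
Tnfrsf25, chr4:152115684-152115933, plus strand, the more upstream of its RefSeq starts: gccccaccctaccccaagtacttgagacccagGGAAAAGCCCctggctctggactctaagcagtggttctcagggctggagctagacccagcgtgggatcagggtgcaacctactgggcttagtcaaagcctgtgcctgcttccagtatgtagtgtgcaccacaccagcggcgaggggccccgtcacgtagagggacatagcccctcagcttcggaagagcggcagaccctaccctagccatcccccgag

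Motifs were searched on both strands in windows of 250 bases before to 50 bases after each start, and no marked matches overlapped. A kappaB core match was present in the windows of 2 of the 10 members and of 1.89% of all 27025 genes. In Tnfrsf9 it began 43 bases before the more downstream RefSeq start, which lies inside the GENCODE M21 gene (beginning at 150914562). In Tnfrsf25 it lay on the minus strand from position −218 of the more upstream start. All positions given for these 2 genes count from those starts, and their other RefSeq windows held no match to any motif searched. An AP-1 match was present in 2 members, Tnfrsf9 (position −15) and Fas (position −211), and in 8.97% of all genes. An IRF match was present in 2 members, Tnfrsf1b (position −10) and Tnfrsf14 (position −64), and in 3.99% of all genes. Of these members, Tnfrsf9 was lower in every DSS library without passing the test, and Tnfrsf25 was nearly the same in both groups. A part of the kappaB core in these levels was not tested. RUNX (TGTGGT) matches were in 2 members, Tnfrsf9 and Tnfrsf25, and in 18.9% of all genes. The letters AGATAA, bound by GATA factors, were in 0 members' windows and in 12.7% of all genes, and an ETS motif (CCGGAAGT) in 0 members and 4.31%. A match is a description of these letters, not a bound site.

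By GENCODE M21, 6 of the 10 genes are on chromosome 4: Tnfrsf1b (145213463 to 145246870, minus strand), Tnfrsf9 (150914562 to 150946102), Tnfrsf25 (152115934 to 152120119), Tnfrsf14 (154921933 to 154928563, minus strand), Tnfrsf4 (156013843 to 156016612) and Tnfrsf18 (156026164 to 156028895). Tnfrsf4 and Tnfrsf18 are 9551 bp apart with no protein-coding gene between them, whereas the other neighbours on this chromosome are 1085279 to 5667691 bp apart with 12 to 75 protein-coding genes between them. Another 3 form a cluster on chromosome 6, with Cd27 (125232622 to 125237010) 69560 bp from Ltbr (125306571 to 125313885) and Ltbr 35476 bp from Tnfrsf1a (125349362 to 125362484). Fas is alone on chromosome 19 (34290666 to 34327772). The neighbours Tnfrsf18 and Tnfrsf4 were alike in some libraries only: Tnfrsf18 had its highest value of all libraries in DSS replicate 1, as did Tnfrsf4, but in DSS replicate 2 Tnfrsf4 was below all 3 controls and Tnfrsf18 was within their range. The libraries do not mark the strand. Exons of Tnfrsf18 share 414 of 1524 bp with the antisense gene Gm16008, which measured at most 12.1 FPKM beside at least 593 for Tnfrsf18. Tnfrsf9 and Cd27 overlap Camta1 and Vamp1 on the opposite strand in introns but in no exon base, and exons of Cd27 hold 129 bp of the microRNA gene Mir8113.

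Library depth, from the whole fragments behind the FPKM values, was 9962415 to 23119390. Principal component 1, with 48.1% of the variance, separated DSS replicate 3 (70.5) and control replicate 3 (28.3) from the other 4 libraries (−33.0 to −10.9), and the second set DSS replicate 1 (−57.9) apart. The same libraries 3 had the highest level of weak genes: the median FPKM of all 23268 genes was 2.61 in DSS replicate 3 and 1.64 in control replicate 3, beside 0.398 to 0.777 in the others. The ILC2 label was met by its 10 markers, none of which was at 0 in any library, with summed levels of 3352 to 3631 FPKM in control and 2497 to 2706 in DSS; 5 of the 10 were lower without overlap, of which Il5 passed the limma test (log2 change −2.43, adjusted p = 8.66e-04). Beside the counts without overlap in this paragraph, 9.60% of all genes tested were lower and 6.35% higher without overlap. Markers of some other cells differed between the groups, in both directions. The 10 neutrophil markers summed to 3.06 to 7.58 FPKM in control and 68.3 to 109 in DSS, 4 of the 6 tested not overlapping. Of these, 3 passed the limma test as higher: S100a8, S100a9 and Retnlg (adjusted p = 8.56e-04, 8.45e-05 and 0.0452). S100a8 and S100a9 had the largest DSS means of the list, 28.1 and 40.8 FPKM. Lcn2 was higher without overlap but did not pass, and Csf3r and Mmp9 overlapped, Mmp9 with a log2 change of −0.36. Ly6g, Cxcr2, Ngp and Camp were below the filter and overlapped. The 10 macrophage markers summed to 13.04 to 18.03 and 20.2 to 47.1, 2 of the 4 tested not overlapping. The 9 epithelial markers summed to 20.003 to 37.5 and 48.1 to 56.9, 4 of the 6 tested not overlapping. Of the 6 ILC3 markers, which summed to 235 to 341 FPKM in control and 79.0 to 339 in DSS, Il17f was lower without overlap (64.0, 44.9 and 57.0 and 29.3, 13.9 and 8.41 FPKM, limma adjusted p = 0.132). Among stromal markers the endothelial gene Pecam1, which leukocytes also express, was lower without overlap (11.7, 12.8 and 13.3 and 1.43, 7.36 and 10.8, limma adjusted p = 0.528), and the endothelial gene Cdh5 was at most 1.51. T cell markers overlapped (24.4 to 33.6 and 21.8 to 56.8). Foxp3, the defining factor of regulatory T cells, which also carry many of these receptors, was at most 0.852 FPKM. Il2ra of the same list was lower without overlap (107.8 to 110.1 and 61.4 to 69.8, limma adjusted p = 0.196), while Ikzf2, Ctla4 and Lrrc32 overlapped. The part of these other cells in the results below was not tested, and in bulk libraries fewer cells of a type and less RNA per cell cannot be told apart.

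TNFR2 (Tnfrsf1b) and TNFR1 (Tnfrsf1a) are the receptors of TNF; TNFR1 carries a death domain and is found on most cell types, and TNFR2 is mainly a receptor of leukocytes and endothelium. Tnfrsf1b measured 100.2, 103 and 120.1 FPKM in control replicates 1, 2 and 3 and 27.8, 37.1 and 46.2 in DSS replicates 1, 2 and 3. Every DSS library was below every control library, and the highest DSS value was under the lowest control value by more than either group's SD. The log2 change was −1.54 ± 0.23 (limma adjusted p = 0.0426, 95% interval −2.05 to −1.03, lower in 3 of 3 DSS libraries). These values rest on 1593 to 8942 fragments per library, so counting error is small beside the spread between libraries. With the replicate number as a block the adjusted p was 0.0479, and with limma voom on the recovered fragments it was 0.0317.

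The direction and size of the Tnfrsf1b change held in all 20 alternative settings, with log2 changes of −1.71 to −1.35, but its place under the threshold did not. The limma adjusted p was 0.373, 0.314 and 0.203 without control replicates 1, 2 and 3, and 0.183 without DSS replicate 2. It was 1.20e-03 without DSS replicate 1 and 0.0275 without DSS replicate 3. With an equal total, median-of-ratios scaling, quantile normalization or no mean-variance trend it was 0.0724, 0.0916, 0.0639 and 0.229, and without both replicates 3 it was 0.246.

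**Figure D2:**
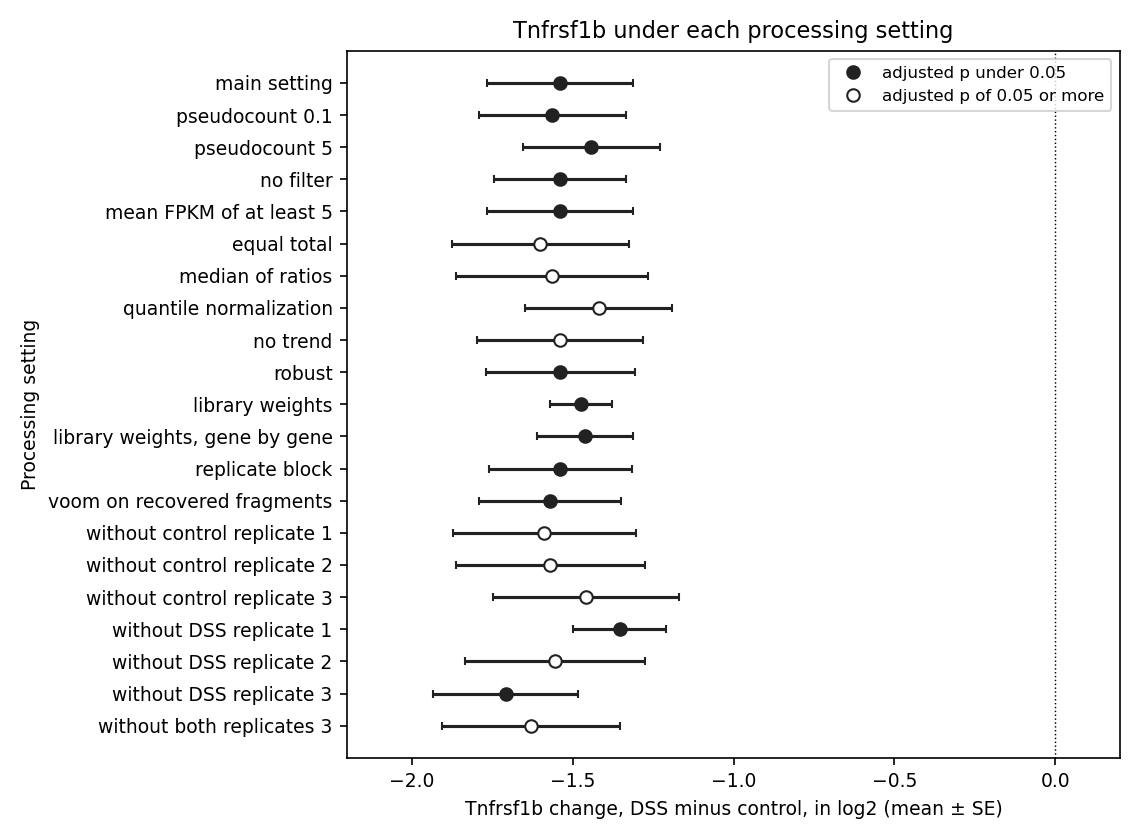
Log2 change of Tnfrsf1b (DSS minus control, ± SE) under the main setting and each of the 20 alternatives, with filled points where the limma adjusted p was under 0.05. All points lie between −1.71 and −1.35, and those of 9 alternatives are open.

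Tnfrsf1a was weak in these cells, at 1.39, 2.41 and 2.86 FPKM in control and 1.21, 0.700 and 3.17 in DSS. The groups overlapped, and the highest value was in DSS replicate 3, the library with the highest level of weak genes. Its level was 1.02 to 4.69 times the median of all genes of the same library, from 29 to 92 fragments. The log2 change was −0.33 ± 0.44 (limma adjusted p = 0.882, 95% interval −1.31 to 0.64). In control libraries the Tnfrsf1b level was 72.1, 42.7 and 42.0 times that of Tnfrsf1a, and in DSS libraries 23.1, 53.0 and 14.6 times. TNFR2 transcripts thus exceeded TNFR1 transcripts in all 6 libraries, and the ratio overlapped between groups.

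4-1BB (Tnfrsf9) is an activation-induced co-stimulatory receptor that binds the ligand encoded by Tnfsf9. Tnfrsf9 measured 84.7, 105 and 110.4 FPKM in control and 71.0, 43.4 and 50.7 in DSS. All 3 DSS libraries were below all 3 controls, with DSS replicate 1 nearest to them. The log2 change was −0.87 ± 0.23 and did not pass over all genes (limma adjusted p = 0.214, 95% interval −1.39 to −0.34). Without DSS replicate 1 it was −1.06, and the adjusted p was 4.31e-03; without any other single library the log2 change was −0.98 to −0.72 and the adjusted p was 0.211 to 0.821. Leaving out DSS replicate 1 raised the calls over all genes from 27 to 413, so values without it are to be read beside that number.

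GITR (Tnfrsf18) and OX40 (Tnfrsf4) are neighbouring co-stimulatory receptor genes. Tnfrsf18 was the most abundant member in each of the 6 libraries, above 99.1% of the tested genes in every one. It measured 719, 761 and 652 FPKM in control and 1189, 694 and 593 in DSS. DSS replicate 1 was above all other libraries and DSS replicate 3 below all others, so the groups overlapped at both ends (log2 change 0.15 ± 0.28, limma adjusted p = 0.917). Without DSS replicate 1 the log2 change was −0.14, and without DSS replicate 3 it was 0.36. Tnfrsf18 made up 59.8% to 65.6% of the summed FPKM of the 10 members in control and 67.7% to 79.5% in DSS, and these shares did not overlap. The sum of the other 9 members was 380 to 439 FPKM in control and 265 to 307 in DSS, again without overlap, most of that difference being Tnfrsf1b and Tnfrsf9.

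Tnfrsf4 measured 32.8, 26.4 and 35.8 FPKM in control and 37.9, 19.5 and 19.4 in DSS. DSS replicate 1 exceeded every control, while the other DSS libraries were below every control (log2 change −0.35 ± 0.28, limma adjusted p = 0.802). Without DSS replicate 1 the log2 change was −0.66 and the adjusted p was 0.0542. Within a library, Tnfrsf18 was 18.2 to 28.9 times Tnfrsf4 in control and 30.5 to 35.6 times in DSS. These ranges were close but did not overlap, although neither gene's level separated the groups. How often the ratio of other gene pairs separates the groups was not tested, so this ratio is a description only.

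CD27 is a co-stimulatory receptor that binds the ligand encoded by Cd70. Cd27 measured 38.4, 39.9 and 54.3 FPKM in control and 46.4, 43.0 and 42.7 in DSS. All DSS values fell between the lowest and the highest control (log2 change 0.011 ± 0.21, limma adjusted p = 0.993, 95% interval −0.45 to 0.47). That interval leaves room for a difference of about the size seen in Tnfrsf4 in either direction.

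DR3 (Tnfrsf25) and Fas are the death-domain receptors of the group besides TNFR1; DR3 binds TL1A, the product of Tnfsf15, and is known for driving ILC2 responses, and Fas binds Fas ligand. Tnfrsf25 was the least variable member, at 90.6, 94.0 and 84.2 FPKM in control and 87.2, 87.0 and 91.9 in DSS. The group means were 89.6 ± 4.97 and 88.7 ± 2.78, with all DSS values inside the control range (log2 change −0.013 ± 0.18, limma adjusted p = 0.991, 95% interval −0.42 to 0.39). Fas measured 27.5, 22.2 and 27.0 FPKM in control and 33.7, 27.4 and 19.1 in DSS. The DSS libraries spread on both sides of the controls (log2 change 0.032 ± 0.24, limma adjusted p = 0.987, 95% interval −0.51 to 0.58).

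The levels of other receptors are also given relative to Tnfrsf25 within each library, as a description. Tnfrsf1b was 1.11, 1.09 and 1.43 times Tnfrsf25 in control and 0.319, 0.427 and 0.502 times in DSS. Tnfrsf9 was 0.935, 1.11 and 1.31 times Tnfrsf25 in control and 0.814, 0.499 and 0.552 times in DSS. Tnfrsf25 was chosen as the reference after its values were seen to be nearly constant, so these ratios restate the levels given above and add no support to them.

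**Figure D3:**
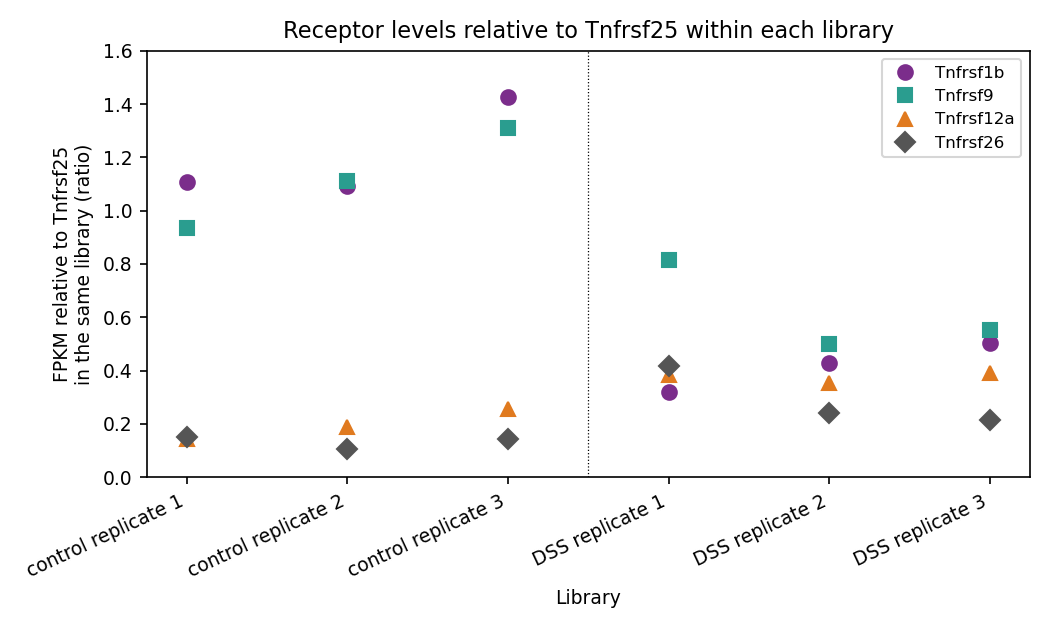
FPKM of Tnfrsf1b, Tnfrsf9, Tnfrsf12a and Tnfrsf26 divided by that of Tnfrsf25 in the same library (ratio, linear axis from 0), for the 3 control libraries left of the dotted line and the 3 DSS libraries right of it. Tnfrsf1b lies at 1.09 to 1.43 in control and 0.319 to 0.502 in DSS, and Tnfrsf12a and Tnfrsf26 are higher in every DSS library than in any control library.

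The lymphotoxin β receptor (Ltbr) and HVEM (Tnfrsf14) complete the group; LTβR is best known from stromal, epithelial and myeloid cells, and HVEM binds LIGHT, encoded by Tnfsf14, as well as the inhibitory receptor BTLA. Ltbr was the weakest member in all 3 controls, at 0.853, 1.55 and 1.85 FPKM, and measured 0.0950, 0.494 and 3.38 in DSS. These values came from 42, 58 and 50 fragments in control and 3, 20 and 72 in DSS. The highest and the lowest value were both in DSS libraries, and in DSS replicates 1 and 2 Ltbr was below the median of all genes of the library (0.122 and 0.720 times). The log2 change was −0.30 ± 0.59 (limma adjusted p = 0.921, 95% interval −1.62 to 1.02). That interval is wide and leaves room for a difference within it in either direction. Without DSS replicate 1 it was 0.11 and without DSS replicate 3 it was −0.90. Tnfrsf14 measured 3.50, 5.05 and 2.26 FPKM in control and 2.05, 6.66 and 6.25 in DSS, from 34 to 150 fragments. DSS replicate 1 was the lowest and the other DSS libraries the highest of all 6 (log2 change 0.31 ± 0.40, limma adjusted p = 0.882); without DSS replicate 1 the log2 change was 0.74 (adjusted p = 0.228).

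The order of the members by level differed between groups mainly through Tnfrsf1b. In control libraries Tnfrsf18 ranked 1 and was followed by Tnfrsf1b (rank 2 to 3), Tnfrsf9 (2 to 4) and Tnfrsf25 (3 to 4), whose ranges overlapped, at 84.2 to 120.1 FPKM. Cd27, Tnfrsf4 and Fas held ranks 5, 6 and 7 in every control library, although the ranges of Tnfrsf4 and Fas overlapped over libraries. In DSS libraries Tnfrsf25 held rank 2 and Tnfrsf9 rank 3 in all 3, while Tnfrsf1b ranked 4 to 7. Tnfrsf14, Tnfrsf1a and Ltbr took the last 3 ranks in all 6 libraries. Among all tested genes Tnfrsf1b stood above 94.8% to 95.9% in control and above 84.4% to 90.9% in DSS.

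**Figure D4:**
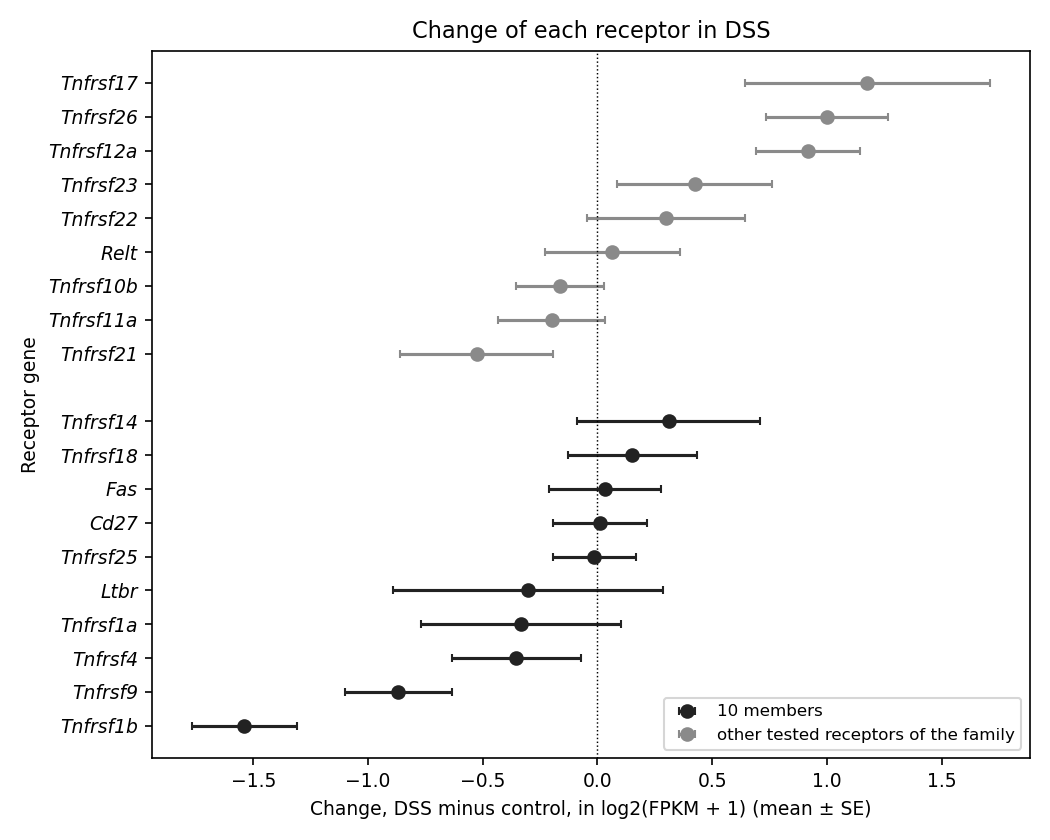
Log2 change (DSS minus control, log2(FPKM + 1) scale, ± SE) of the 10 members in black and of the 9 other tested receptors of the family in grey. Tnfrsf1b (−1.54) and Tnfrsf9 (−0.87) lie lowest, and Tnfrsf17, Tnfrsf26 and Tnfrsf12a (1.18, 1.00 and 0.92) highest.

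Of 18 further receptors of the family, 9 passed the filter on low values and 0 of them passed the limma test. Of the 9, 2 had an unadjusted limma p under 0.05, beside 8.99% of all genes tested. Every DSS library was above every control in 4 and below in 1, beside 6.35% and 9.60% of all genes tested. The receptor genes with the smallest p values pointed the other way from Tnfrsf1b. Tnfrsf12a, the gene of Fn14, the receptor of TWEAK known from injured epithelium and other tissues, measured 13.04, 17.8 and 21.6 FPKM in control and 33.3, 30.6 and 35.8 in DSS. Its log2 change was 0.92 ± 0.23 (limma adjusted p = 0.180), which passed in 3 of 20 alternatives. The adjusted p was 0.0347 without DSS replicate 1, where 413 genes were called in place of 27, and up to 0.758 in the others. Tnfrsf26, the gene of a receptor whose ligand use is less well known, measured 13.7, 10.1 and 12.2 FPKM in control and 36.5, 21.0 and 19.7 in DSS (log2 change 1.00 ± 0.27, limma adjusted p = 0.209). Both genes were higher in each DSS library than in any control, as were the summed neutrophil, macrophage and epithelial markers given above, whose part in these values was not tested. Tnfrsf17, the gene of BCMA, a receptor of plasma cells, measured 0.735, 0.208 and 3.83 FPKM in control and 2.37, 3.58 and 6.56 in DSS, overlapping between groups (limma adjusted p = 0.565). Tnfrsf22 and Tnfrsf23 also separated upward and Tnfrsf10b downward, each by less than 0.43 on the log2 scale; these 3 are named after their values were seen. Tnfrsf12a was 0.130 to 0.179 times Tnfrsf1b in control and 0.776 to 1.20 times in DSS. The 2 genes separated in opposite directions, so this ratio could not overlap. It restates their levels and adds no support to them.

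The ligand genes of the members went in both directions. Of the 10, 8 were tested; 1 rose and 0 fell by the limma test, 4 of the 8 had an unadjusted p under 0.05, beside 8.99% of all genes tested, and the median log2 change was −0.34. Ltb, whose product is part of the ligand of LTβR, rose from 103, 115 and 116 FPKM in control to 236, 259 and 270 in DSS (log2 change 1.19 ± 0.19, limma adjusted p = 0.0452), while its receptor gene Ltbr overlapped as given above. The log2 change of Ltb was 1.12 to 1.24 in all 20 alternatives, but it missed the threshold in 14 of them. The adjusted p was 0.0601 with a pseudocount of 5, 0.0605 with no filter, 0.0841, 0.276 and 0.0731 with equal-total, median-of-ratios and quantile scaling, 0.229 with no trend and 0.0686 with robust variances. With the replicate block it was 0.0884, without control replicates 1, 2 and 3 it was 0.437, 0.444 and 0.261, and without DSS replicates 2 and 3 it was 0.247 and 0.0656; without both replicates 3 it was 0.323. Tnf, the ligand of both TNF receptors, measured 54.7, 48.8 and 46.8 FPKM in control and 82.4, 73.0 and 49.0 in DSS (limma adjusted p = 0.682), and Lta 31.9, 35.2 and 30.3 and 28.7, 39.8 and 24.2 (0.938). Tnfsf9, the 4-1BB ligand gene, measured 191, 184 and 164 FPKM in control and 358, 268 and 204 in DSS, with no overlap but no pass (0.483). Its direction was opposite to that of its receptor gene Tnfrsf9.

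Tnfsf14 measured 33.8, 38.6 and 38.8 FPKM in control and 16.4, 24.8 and 31.9 in DSS, and Tnfsf18, the GITR ligand gene, 3.93, 5.32 and 4.64 and 2.58, 1.66 and 3.88. Both separated downward without passing (limma adjusted p = 0.474 and 0.587). Of the 8 ligand genes tested, 2 separated downward and 2 upward, beside 9.60% and 6.35% of all genes tested. Cd70 measured 13.1, 11.6 and 9.35 FPKM in control and 9.43, 2.47 and 4.59 in DSS, overlapping only through DSS replicate 1 (limma adjusted p = 0.370, or 0.0105 without that library and at least 0.307 without any other). Tnfsf4, the OX40 ligand gene, measured 7.89, 6.43 and 3.94 and 5.18, 2.63 and 3.23, which overlapped. Tnfsf15 and Fasl were below the filter, at no more than 3.37 and 2.05 FPKM in any library, beside at least 84.2 and 19.1 FPKM for their receptor genes Tnfrsf25 and Fas.

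Genes that act downstream of the receptors were described by lists. In each of the adaptor, death effector, NF-kB and shedding lists 0 genes passed the limma test, with 2 of 24, 1 of 10, 3 of 14 and 0 of 5 at an unadjusted p under 0.05, beside 8.99% of all genes tested. Of 24 TRAF and ubiquitin adaptor genes, 21 had a log2 change below 0 and 3 above, with a median of −0.25. Of all genes tested 46.9% were below 0, and the median over the 6734 genes whose mean FPKM reached 5 was −0.081. Some adaptors were far lower in DSS replicate 1 than in the other DSS libraries. Tnfaip3 measured 1114, 1040 and 1019 FPKM in control and 474, 913 and 1127 in DSS. For Rbck1 the values were 72.9, 76.6 and 94.4 and 33.1, 88.4 and 87.4. Traf1 was not lowest there (143, 124 and 124 in DSS), and the part of DSS replicate 1 in the list counts was not tested. In this list 5 genes separated downward (Traf1, Traf2, Tnip1, Tank and Traf3ip2) and 1 upward (Tradd), beside 9.60% and 6.35% of all genes tested. Traf2, the adaptor that TNFR2 and 4-1BB bind, measured 30.0, 31.1 and 28.1 FPKM in control and 10.7, 23.9 and 25.1 in DSS (limma adjusted p = 0.587). Tnip1, an inhibitor of NF-kB signalling, measured 146, 155 and 149.5 and 65.3, 122 and 112 (0.472). Tradd, the adaptor of the death domains of TNFR1 and DR3, measured 10.99, 10.2 and 10.6 and 15.2, 22.3 and 13.8 (0.425), the opposite direction.

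Of 14 NF-kB kinases, subunits and inhibitors, 10 had a log2 change below 0, with a median of −0.42. Of the 14, 4 separated downward (Rel, Nfkb1, Nfkbie and Relb) and 1 upward (Nfkbia), beside 9.60% and 6.35% of all genes tested. Some were far lower in DSS replicate 1 than in the other DSS libraries. Rela measured 135, 127 and 142 FPKM in control and 55.9, 141 and 130 in DSS. For Nfkb2 the values were 89.1, 117 and 97.0 and 27.1, 81.1 and 91.1. Rel was low in all 3 DSS libraries, and the part of DSS replicate 1 in the list median was not tested. Rel, the lymphocyte NF-kB subunit c-Rel, measured 41.5, 34.98 and 32.5 FPKM in control and 16.8, 21.5 and 20.4 in DSS (log2 change −0.86 ± 0.21, limma adjusted p = 0.161, passing in 3 of 20 alternatives with a range of 2.36e-04 to 0.735). Nfkb1, the p105 and p50 subunit gene, measured 238, 245 and 225 and 106, 147 and 174 (−0.75 ± 0.23, limma adjusted p = 0.288, passing in 3 of 20 alternatives with a range of 1.41e-04 to 0.992). For both genes the passing alternatives were both kinds of library weights and leaving out DSS replicate 1 (0.0231 for Rel and 0.0420 for Nfkb1), where many more genes were called overall. Nfkbie, an inhibitor gene, measured 58.0, 61.1 and 59.6 and 34.5, 42.5 and 48.7 (limma adjusted p = 0.464). Of 10 death domain and caspase effector genes, 4 were below 0 and 6 above, with a median of 0.14. Ripk3, a kinase of necroptosis, measured 50.5, 70.3 and 50.8 and 35.3, 40.5 and 38.2 FPKM, and Diablo 12.4, 13.8 and 11.1 and 7.997, 9.83 and 9.83. Both separated downward (limma adjusted p = 0.419 and 0.647). Of the 10, 2 thus separated downward and 0 upward, beside 9.60% and 6.35% of all genes tested. Cflar, which encodes the caspase-8 inhibitor c-FLIP, overlapped (limma adjusted p = 0.660). Of 5 genes for shedding of receptors from the cell surface, 0 separated.

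**Figure D5:**
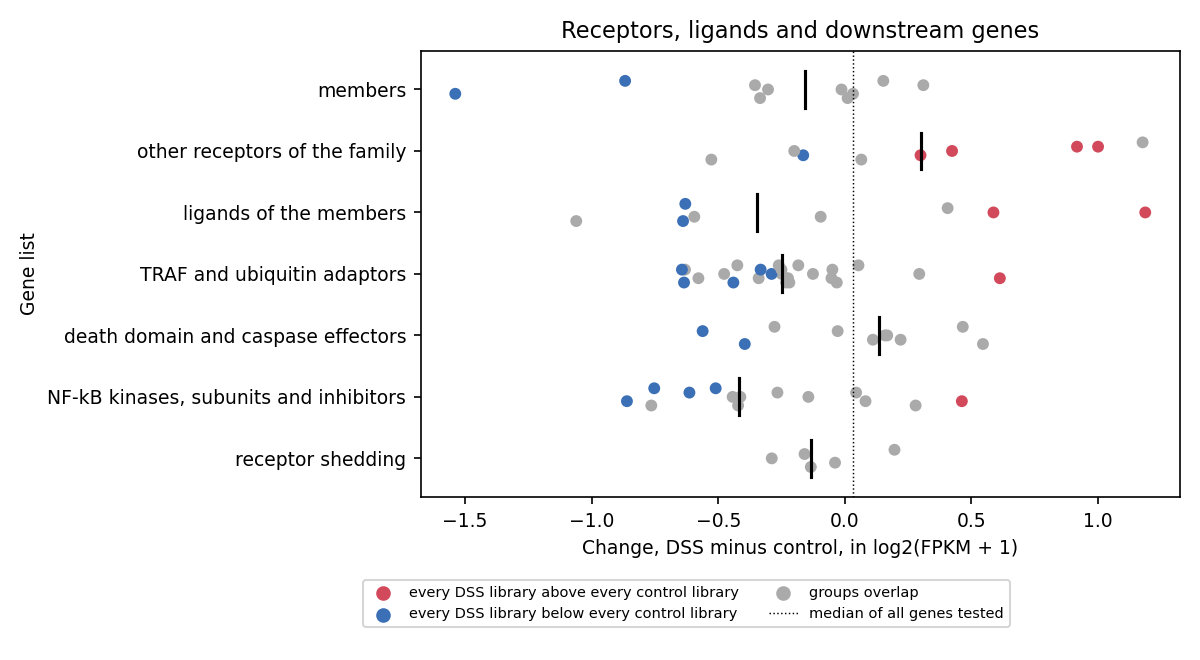
Log2 change (DSS minus control, log2(FPKM + 1) scale) of each tested gene of the receptor, ligand and downstream lists; black ticks are list medians, the dotted line is the median of all 12187 genes tested (0.031), and colour marks groups that do not overlap. The 10 members centre at −0.16 with Tnfrsf1b far to the left, the other receptors at 0.30, and the NF-kB list at −0.42.

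The genes whose values over the 6 libraries were most like those of Tnfrsf1b, by Pearson correlation of log2(FPKM + 1), were Mgat4a, Sla and Nck2 (r = 0.993, 0.993 and 0.992, n = 6 libraries). Sla and Nck2 encode adaptor proteins of lymphocyte receptor signalling, and Mgat4a a Golgi enzyme of N-glycan branching. Sla measured 102, 92.8 and 102 FPKM in control and 32.9, 45.5 and 52.5 in DSS (limma adjusted p = 0.0984). These correlations were the highest of the 12187 genes tested, over 6 libraries that fall into 2 groups, and are given as a description.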

How the data were processed

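RNA from sorted colonic ILC2s was sequenced in 3 control and 3 DSS libraries. Per the labels' protocols, TRIzol RNA was made into full-length cDNA with a SMART-Seq HT kit and into Nextera XT libraries, which do not mark strand. Per the submitters' processing notes, Cutadapt 1.9, HISAT2 2.2.1 and mm10 were used; no counter or length annotation is given in the sources used here. Values as deposited by the authors are FPKM for 23268 genes. Whole fragments (tolerance 0.001) were recovered from the FPKM steps for 22701 of 22701 genes above 0; 710 of these are above 0 in 1 library only and meet the tolerance in any case.

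Samples were grouped by title. The test was limma 3.58.1 (R 4.3.3, moderated variances with trend, two-sided) on log2(FPKM + 1), pseudocount 1, over the 12187 genes whose mean FPKM reached 1. The p-values were adjusted by Benjamini-Hochberg, with 0.05 as the threshold. The procedure was also run on simulated data, but these held no outlier library, so that run does not vouch for the calls given here. Deviations from group means correlated between libraries of the same number (0.189, 0.262 and 0.545, each above 0.1), by which the numbers count as a pairing; it comes from the data, since the labels state none, and was not specific to the number for replicates 1 and 2 (control 1 with DSS 2 0.345, control 2 with DSS 1 0.101). Named genes were the 10 members, their ligands, the 3 smallest p values of each other list and the 3 genes most like a member that passed; shedding genes are given as counts only, and further genes are named where a small count required it. Members and lists were chosen with earlier results of these data known. Coordinates are 1-based, from GENCODE M21 (GRCm38). Alternatives were other pseudocounts, filters, scalings, variance estimates, weights, a replicate block, voom and left-out libraries. Tables and figures were made with Python 3.11.15, pandas 2.3.3 and matplotlib 3.10.9.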

Additional observations from a re-analysis of the deposited data

How the results depend on the processing

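For the 10 members, 165 of 197 values under the alternatives kept direction and side of the threshold, 9 fell short of it (all Tnfrsf1b), 6 newly passed and 17 changed sign. With 27 genes called in the main setting, 14 were called after scaling to an equal total, 13 after median-of-ratios scaling, 4 with no trend, 3286 with library weights, 635 with weights by the gene-by-gene update (added after seeing the data), 5 without both replicates 3, and 4 to 413 without 1 library. The default weights stopped before converging and gave DSS replicate 2 a weight of 17.8, beside 0.147 to 1.84 for the others. Members called lower numbered 1 in the main setting, 0 with an equal total, median of ratios, quantile normalization, no trend or without both replicates 3, 4 under library weights, 2 under the gene-by-gene form, and 0 to 2 without 1 library; members called higher numbered 0, or 1 with library weights. The log2 change turned sign for Tnfrsf14 without both replicates 3 (−0.11), Tnfrsf18 with both kinds of weights (−0.061 and −0.035), Tnfrsf25 after quantile normalization (0.081), Cd27 with an equal total and median of ratios (−0.051 and −0.014), Fas with an equal total (−0.029), and Lta with both kinds of weights and without both replicates 3 (0.24, 0.12 and 0.013). Without 1 library the range was −0.14 to 0.36 for Tnfrsf18, −0.057 to 0.022 for Tnfrsf25, −0.90 to 0.11 for Ltbr, −0.079 to 0.16 for Cd27, −0.15 to 0.25 for Fas and −0.29 to 0.060 for Lta. None of these was called in the main setting, and the cause was not tested. With the replicate block 22 genes were called; the Tnfrsf1b adjusted p was 0.0479, Ltb no longer passed (0.0884), and no other call among the named genes changed. For genes whose mean FPKM reached 5, the pairing correlations were 0.141, 0.035 and 0.25. Depth limits Ltbr and Tnfrsf1a most, with 3 to 72 and 29 to 92 fragments per library.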
